A study of Caenorhabditis elegans with 3 samples.

Results

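Argonaute proteins bind small RNAs and use them to find matching transcripts, and Caenorhabditis elegans has an unusually large set of them. The genes described here are the Argonautes together with the Dicer, RNA-dependent RNA polymerase (RdRP), mutator and helper genes that make or use small RNAs. They were chosen by name, as a list of 51 genes, with earlier results of these data known, although no measured value entered the rule. A gene was followed where a probe was annotated to that gene alone. Of the 51, 42 genes had such a probe with a value on all 3 arrays, out of 15090 genes measured in this way. The names mut-2 and cde-1 are not symbols of the gene table and were not matched, and mut-2 is another name of rde-3, which was measured. No probe of their own was used for eri-5, tofu-6, rrf-1, ppw-1, ppw-2, rde-10 and rde-11. For ppw-1, 2 probes were annotated jointly with sago-2, for rde-11, 1 probe was annotated jointly with another gene, and these were not used.

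The RNA came from adult hermaphrodites labelled TP11 and "adult w/ emb 2", read as adults carrying embryos, and the genotype of these worms is not given in the labels. The 3 worm preps form 1 group, and each was hybridised on its own 2-colour array against a wild-type mixed reference RNA. Values are log2 ratios of adult over reference RNA, with each array's median set to 0, so that 1 stands for a 2-fold higher level in the adults relative to the reference. No label names the dyes, and adult over reference is therefore a likely reading, taken from the channel order, and not a settled one. Whether the preps were separate cultures is not labelled either, and the p-values rest on a spread among 3 preps that could be technical.

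Several small RNA classes share the worm germline. MicroRNAs are cut from hairpins by Drosha and Dicer and loaded on ALG-1 and ALG-2. Primary small interfering RNAs and PIWI-interacting RNAs (piRNAs) are bound by a first set of Argonautes, and RdRPs then copy the target into abundant secondary 22G RNAs, which are bound by CSR-1 or by the worm-specific Argonautes called WAGOs. CSR-1 is known for its association with transcripts expressed in the germline, while WAGOs are known for silencing, in the cytoplasm and in the nucleus.

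Most of the measured genes were higher in the adults than in the reference. In limma's moderated test, adjusted over all 19710 probes by the Benjamini-Hochberg method with a threshold of 0.05, 26 of the 42 genes were higher, 0 were lower and 16 did not pass. Over all genes measured, 16.1% were higher and 17.8% lower. Leaving out prep 1, prep 2 or prep 3 gave 25, 24 and 20 higher genes of the 42, against 13.1%, 14.1% and 12.9% of all genes. At an unadjusted p under 0.05 there were 32 genes, of which 1, sago-1, had a negative ratio. The share of all genes at that looser threshold was not counted, so this number has no background beside it. All 3 preps were positive for 32 genes and all negative for 1, and 9 genes had mixed signs. The 3 preps thus shared a sign for 78.6% of the 42 genes, against 62.2% of all genes. The mean ratio was above 0 for 88.1% of the 42 genes, against 48.0% of all genes. The median ratio of the 42 genes was 0.66 on the log2 scale, against −0.024 over all genes, and 14 of the 26 were at least 2-fold higher, a size and call that 5.65% of all genes had. Without prep 1 the means of alg-2, hrde-1, rde-4 and sid-1 fell under 2-fold, at 0.94, 0.89, 0.74 and 0.86. The mean of dcr-1 then rose above it, at 1.03. At least 2-fold lower with a call were 0 of the 42 genes and 7.61% of all genes. The order of the 42 genes was similar between arrays, with a Spearman rho of 0.744 for preps 1 and 2, 0.636 for preps 1 and 3, and 0.854 for preps 2 and 3 (n = 42 genes, which share their 3 arrays).

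**Figure D1:**
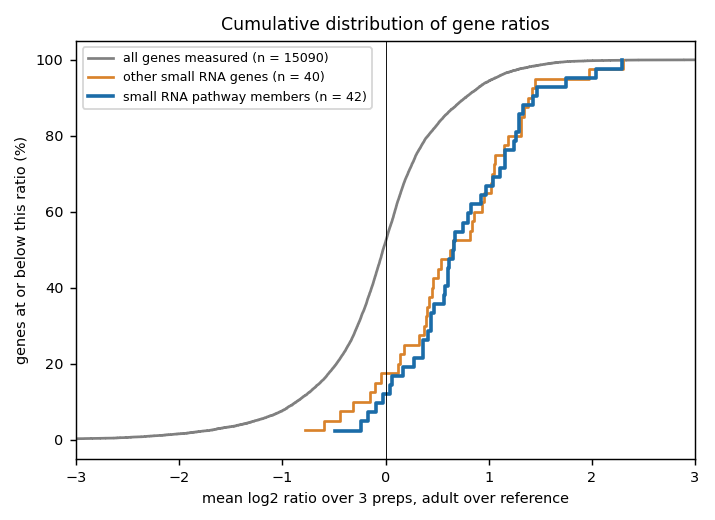
The plot shows, for each mean log2 ratio of adult over reference (horizontal axis), the percentage of genes at or below it (vertical axis), for all 15090 genes, the 42 small RNA pathway genes and 40 other small RNA genes. Through most of the range both small RNA curves lie to the right of the curve of all genes, with medians of 0.66 and 0.64 against −0.024.

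Of the 42 genes, 18 were in the highest decile of all genes by mean ratio and 12 in the next decile, while 0 were in the lowest decile. These deciles, and every rank and fold given below, hold for adult over reference, and with the channels the other way round they would count from the opposite end, with higher read as lower. The same was seen on single arrays. On preps 1, 2 and 3, 18, 18 and 21 of the 42 genes were above the 90th percentile of that array's genes, and 0 were below the 10th percentile on any of them. The median ratio of the 42 genes was 0.757, 0.521 and 0.703 on preps 1, 2 and 3, and the robust SD of all probes was 0.773, 0.484 and 0.370. The median was thus highest on prep 1, the array with the widest spread. Prep 3 had the narrowest spread and yet a higher median than prep 2. Prep 1 gave the highest value of the 3 for 26 genes. After the arrays were scaled to equal spread, prep 3 did so for 26 genes and prep 1 for 10.

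The tissue read from the label was set beside marker genes, with the ratios again taken as adult over reference. With the channels the other way round, higher and lower would trade places for the markers too. Of 6 measured germ granule markers 6 were higher, with list means of 2.15, 1.61 and 1.76 on preps 1, 2 and 3, and of 8 meiosis markers 8 were higher, with list means of 1.15, 0.652 and 0.882. Of 9 oocyte and eggshell markers 8 were higher, with list means of 2.18, 1.26 and 1.53, and egg-1 (−0.31 ± 0.07, SD, n = 3) did not pass. Sperm markers were lower for 3 of 7 and neuronal markers for 3 of 7, and none of these 14 was higher. Of the 5 body wall muscle markers none passed, and of the 6 intestinal markers 1 was higher. The shares over all genes measured were 16.1% higher and 17.8% lower. The higher ratios of the small RNA genes thus stood beside higher ratios of germline and oocyte markers. In whole worms a larger share of germ cells and more of a transcript per germ cell cannot be told apart, and the part of the germline share in the ratios below was not tested.

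**Figure D2:**
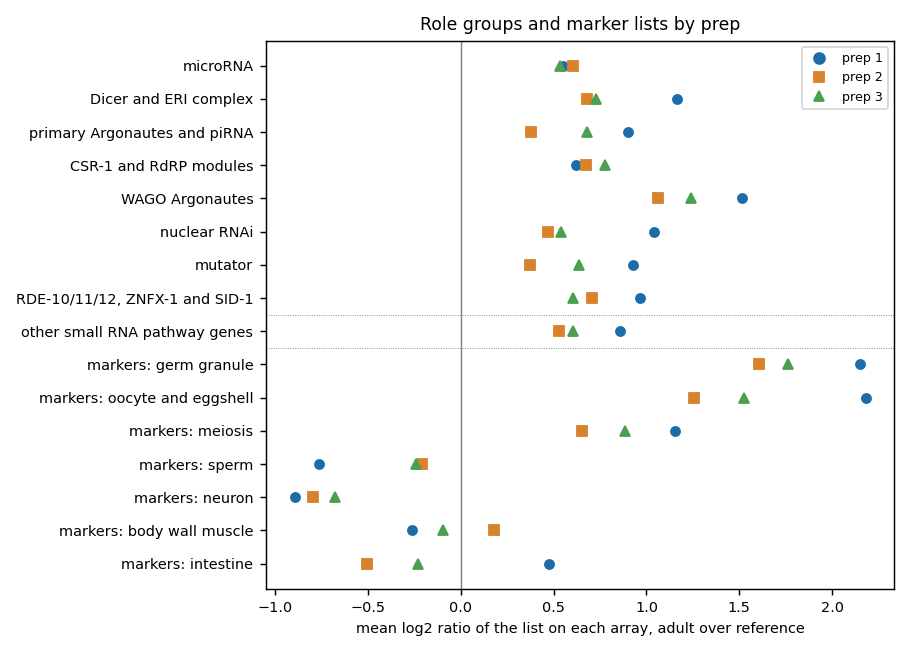
Each point is the mean log2 ratio of adult over reference (horizontal axis) of 1 gene list on 1 array, for the 8 role groups of the small RNA genes, the other small RNA genes and 7 marker lists (rows). All 8 role groups are positive on all 3 preps, below the germ granule and oocyte marker lists, and the sperm and neuronal marker lists are negative.

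**Figure D3:**
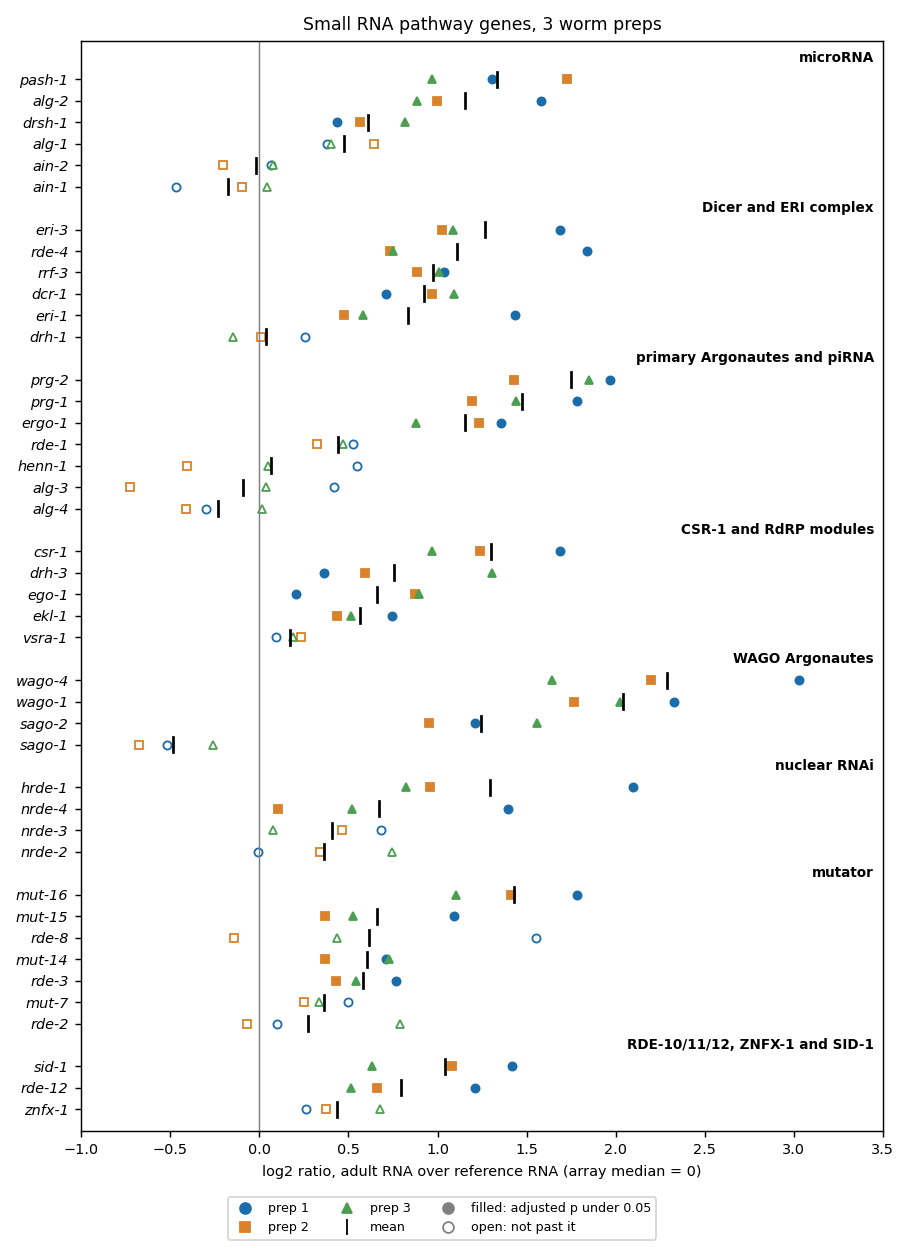
Each row is 1 of the 42 small RNA pathway genes, grouped by role, with the log2 ratio of adult over reference (horizontal axis) on each of the 3 preps and their mean as a bar. Filled symbols mark the 26 genes past the adjusted p threshold of 0.05. The ratios run from −0.49 for sago-1 to 2.29 for wago-4.

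The group listed as WAGO Argonautes held both the highest and the lowest of the 42 mean ratios. Of its 4 measured genes, wago-1, wago-4, sago-1 and sago-2, 3 were higher and 1 did not pass. The nuclear Argonaute genes hrde-1 and nrde-3 are counted below under nuclear RNA interference, so this is not a count of all WAGOs. For this and the role groups below, the shares over all genes measured were 16.1% higher and 17.8% lower. WAGO-4, a germline Argonaute needed for the inheritance of RNA interference, had log2 ratios of 3.03, 2.20 and 1.64 on preps 1, 2 and 3. Its mean of 2.29 ± 0.70 (SD, n = 3) corresponds to 4.89 times the reference level (0.205 times with the direction turned), and it ranked 23rd of the 15090 genes from the top of adult over reference. WAGO-1, a germline Argonaute found at P granules, the RNA-rich granules of germ cells, stood at 2.33, 1.77 and 2.03. Its mean of 2.04 ± 0.28 corresponds to 4.12 times the reference level (0.243 times with the direction turned). It had a rank of 34 of 15090 from the top of adult over reference. The adjusted p-values in limma were 7.8e-05 for wago-4 and 2.9e-05 for wago-1. Both were far above 0 on every prep, and wago-4 varied more between preps than wago-1.

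The secondary Argonaute genes sago-1 and sago-2 went different ways. The log2 ratios of sago-2 were 1.21, 0.955 and 1.56 (mean 1.24 ± 0.30, adjusted p = 0.00058 in limma). Those of sago-1 were −0.517, −0.678 and −0.262, a mean of −0.49 ± 0.21 with an adjusted p of 0.057. It was the only one of the 42 genes that was negative on all 3 preps. Its call depended on the scaling: it was lower after scaling to equal spread (adjusted p = 0.041) and after quantile normalization (adjusted p = 0.026). Within the arrays the log2 ratio of sago-1 minus that of sago-2 was −1.73, −1.63 and −1.82, a mean difference of −1.73 ± 0.09 that left no overlap between the genes. In an exact two-sided sign-flip permutation test this difference had p = 0.25, the smallest that 3 arrays allow. Since 2 other probes are annotated to both sago-2 and ppw-1, the sago-2 probe may also bind ppw-1 transcripts.

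The piRNA Argonautes were also among the genes with high ratios. PRG-1 is the PIWI protein of the worm germline, and PRG-2 is a near-identical copy of it, so each probe may bind both transcripts and the values of the pair are not independent. The log2 ratios of prg-1 were 1.79, 1.19 and 1.44 (mean 1.47 ± 0.30, adjusted p = 2.0e-04 in limma). The ratios of prg-2 were 1.97, 1.43 and 1.85 (mean 1.75 ± 0.28, adjusted p = 7.5e-05 in limma). Its mean corresponds to 3.36 times the reference level (0.297 times with the direction turned). It was 78th of the 15090 genes from the top of adult over reference. On every prep prg-2 was slightly above prg-1, with a mean difference of −0.276 ± 0.118 for prg-1 minus prg-2. The exact two-sided sign-flip test gave p = 0.25, the smallest that 3 arrays allow whatever the size of the difference. The methyltransferase gene henn-1, whose product protects the 3′ ends of piRNAs and of some 26G RNAs, had mixed signs, with 0.551, −0.406 and 0.046 (mean 0.063 ± 0.479, adjusted p = 0.853).

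Of the 4 primary Argonaute genes for other small interfering RNAs, ergo-1 was higher and alg-3, alg-4 and rde-1 did not pass. ERGO-1 binds 26G RNAs of oocytes and embryos, and its gene was higher on all preps, at 1.35, 1.23 and 0.880 (mean 1.15 ± 0.25, adjusted p = 0.00074 in limma). ALG-3 and ALG-4 bind the 26G RNAs of developing sperm. Each of their genes was read from 1 probe, and whether either probe binds the transcripts of both was not tested. The ratios of alg-3 were 0.420, −0.727 and 0.036 (mean −0.09 ± 0.58, adjusted p = 0.801). Those of alg-4 were −0.301, −0.412 and 0.013 (mean −0.23 ± 0.22, adjusted p = 0.367). Neither passed, both spread over 0, and for alg-3 the sign of the mean rested on prep 2, without which it was 0.228. The sperm markers measured beside them had list means of −0.766, −0.21 and −0.241, with gsp-3 (−0.91 ± 0.45), gsp-4 (−0.94 ± 0.39) and spe-11 (−0.75 ± 0.44) lower and the other 4 not past the threshold. Whether they moved with the sperm markers was not tested. RDE-1, the Argonaute that takes up small RNAs from long double-stranded RNA, was positive on all preps, at 0.526, 0.324 and 0.472, and its mean of 0.44 ± 0.10 did not pass (adjusted p = 0.072). Scaling to equal spread and quantile normalization each made it higher (adjusted p = 0.046 and 0.034).

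For microRNAs, 3 of 6 genes were higher. The 2 genes of the nuclear processing complex were both higher: pash-1, the worm DGCR8, at 1.31, 1.73 and 0.971 (mean 1.33 ± 0.38, adjusted p = 0.00048 in limma), and drsh-1, the RNase III enzyme Drosha. The drsh-1 ratios were 0.438, 0.564 and 0.819 (mean 0.61 ± 0.19, adjusted p = 0.028), and each of its 2 probes passed. Without prep 3 the call of drsh-1 was lost (adjusted p = 0.235). The Argonaute alg-2 was higher, with 1.58, 0.998 and 0.884 (mean 1.15 ± 0.37, adjusted p = 0.0011). Its close relative alg-1 was positive on all preps too, at 0.378, 0.643 and 0.399, but its mean of 0.47 ± 0.15 did not pass (adjusted p = 0.058). It passed as higher without centring (adjusted p = 0.047), after scaling (0.035), after quantile normalization (0.024) and without prep 1 (0.045). On each prep alg-1 was below alg-2, with differences of −1.20, −0.355 and −0.484 and a mean difference of −0.68 ± 0.46 (exact two-sided p = 0.25, the smallest that 3 arrays allow). Each of the 2 genes was read from 1 probe, and whether either probe binds the transcripts of both was not tested.

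The genes ain-1 and ain-2, which encode the GW182-type partners that connect microRNA Argonautes to translational repression, had ratios near 0. The ratios of ain-1 were −0.465, −0.098 and 0.041 (mean of 2 probes −0.17 ± 0.26), and those of ain-2 were 0.067, −0.201 and 0.075 (mean −0.020 ± 0.157). The adjusted p-values were 0.963 and 0.948. The 2 probes of ain-1 had means of 0.014 and −0.36, and neither passed.

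**Figure D4:**
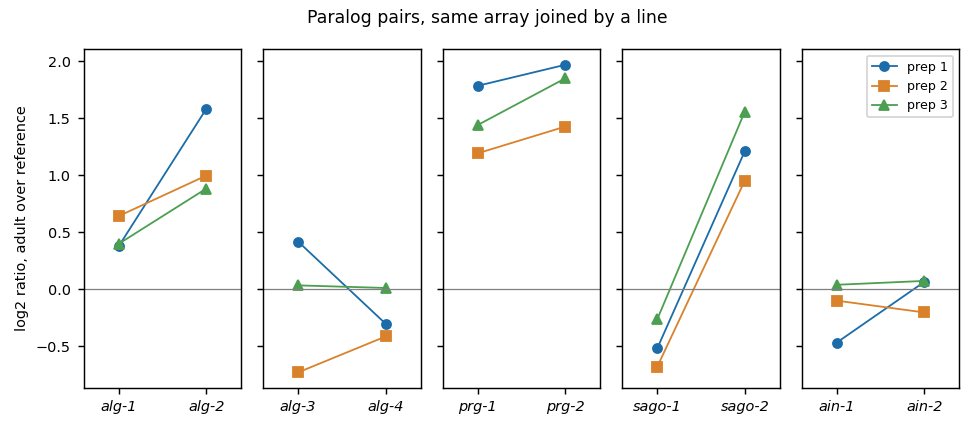
Each panel shows a pair of related genes, with the log2 ratios of adult over reference (vertical axis) from the same array joined by a line. In the sago and prg pairs and in alg-1 and alg-2 the second gene is above the first on all 3 preps, with mean differences, first minus second, of −1.73, −0.276 and −0.68. In the pair of alg-3 and alg-4 and in the ain pair the sign of the difference varies between preps.

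In the group of Dicer and ERI complex genes, 5 of 6 measured were higher. The ERI complex makes 26G RNAs, and not every gene of the group belongs to it. The Dicer gene dcr-1 stood at 0.712, 0.969 and 1.09 (mean 0.92 ± 0.19, adjusted p = 0.0024 in limma). The RdRP gene rrf-3, which starts 26G synthesis, was close to 1 on each prep, at 1.04, 0.884 and 1.01 (mean 0.98 ± 0.08, adjusted p = 0.0014). The ERI complex gene eri-3 had ratios of 1.69, 1.02 and 1.09 (mean 1.27 ± 0.37), and the exonuclease gene eri-1, which also trims ribosomal RNA, had 1.44, 0.477 and 0.581 (mean 0.83 ± 0.53). For rde-4, whose product hands double-stranded RNA to Dicer, they were 1.84, 0.731 and 0.749 (mean 1.11 ± 0.64). In eri-1 and rde-4 prep 1 stood well above the other preps. Both kept their call in all 10 alternatives, with adjusted p-values of at most 0.038 and 0.0090, but the mean of eri-1 went to 0.53 without prep 1. The gene of the group that did not pass was drh-1, a RIG-I-like helicase gene known for antiviral RNA interference and not as an ERI complex gene. Its ratios were 0.258, 0.0096 and −0.148 (mean 0.040 ± 0.205, adjusted p = 0.894 in limma).

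In the group of CSR-1 and RdRP genes, 4 of 5 measured were higher. RdRPs also make the 22G RNAs of WAGOs, so the group is not particular to CSR-1. The Argonaute gene csr-1 was at 1.69, 1.24 and 0.969 (mean 1.30 ± 0.36, adjusted p = 0.00055 in limma), which is 2.46 times the reference level. The factors that make its 22G RNAs had smaller ratios. The germline RdRP gene ego-1 had 0.205, 0.872 and 0.898 (mean 0.66 ± 0.39, adjusted p = 0.024), the helicase gene drh-3 had 0.363, 0.591 and 1.31 (mean 0.75 ± 0.49, adjusted p = 0.017), and the Tudor-domain gene ekl-1 had 0.747, 0.437 and 0.516 (mean 0.57 ± 0.16, adjusted p = 0.028). For ego-1 and drh-3 prep 1 gave the lowest value of the 3 preps, and for csr-1 and ekl-1 the highest. These 3 calls were lost with 1 prep left out: ego-1 without prep 2 (adjusted p = 0.140) or prep 3 (0.163), drh-3 without prep 3 (0.232), with its mean going to 0.48, and ekl-1 without prep 1, 2 or 3 (0.056, 0.076 and 0.116). The Argonaute gene vsra-1 stayed near 0, with 0.094, 0.233 and 0.189 (mean 0.17 ± 0.07, adjusted p = 0.498).

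In nuclear RNA interference, 2 of 4 genes were higher. HRDE-1 is the nuclear Argonaute of the germline, and its gene had ratios of 2.10, 0.960 and 0.821 (mean 1.29 ± 0.70, adjusted p = 0.0022 in limma). NRDE-3 is the nuclear Argonaute of somatic cells. The ratios of nrde-3 were 0.683, 0.464 and 0.076 (mean 0.41 ± 0.31, adjusted p = 0.123). The germline gene was above the somatic one on every prep, and the difference between them was not tested. The ratios of the nuclear factors that act with them also varied between preps. The gene nrde-4 had 1.39, 0.106 and 0.520 (mean 0.67 ± 0.66, adjusted p = 0.048), and nrde-2 had −0.0086, 0.343 and 0.746 (mean 0.36 ± 0.38, adjusted p = 0.191). The call of nrde-4 rested on prep 1, without which its mean was 0.31 and its adjusted p 0.233, and it was also lost when probes on at least 2 arrays were tested (0.056). The mean of nrde-2 ran from 0.17 without prep 3 (adjusted p = 0.743) to 0.54 without prep 1, where it was higher (adjusted p = 0.046).

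Mutator genes act at perinuclear foci where 22G RNAs are amplified, and 4 of 7 measured were higher. The gene of the scaffold that forms these foci, mut-16, was the highest of the 7 on each prep, at 1.78, 1.41 and 1.10 (mean 1.43 ± 0.34, adjusted p = 0.00028 in limma), or 2.70 times the reference level. The remaining 6 had means from 0.27 to 0.66. The gene mut-15 had 1.09, 0.369 and 0.526 (mean 0.66 ± 0.38, adjusted p = 0.022), and the DEAD-box helicase gene mut-14 had 0.708, 0.369 and 0.729 (mean 0.60 ± 0.20, adjusted p = 0.022). The gene rde-3, whose product adds nucleotides to the ends of cleaved target RNAs, had 0.767, 0.430 and 0.543 (mean 0.58 ± 0.17, adjusted p = 0.025). All of these were positive on each prep, yet the call of mut-15 was lost without prep 1 (adjusted p = 0.072), that of mut-14 without prep 3 (0.163) and that of rde-3 without prep 1, 2 or 3 (0.052, 0.064 and 0.111).

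Among the mutator genes that did not pass, the preps disagreed for rde-8, which encodes an endonuclease, with 1.55, −0.141 and 0.434 (mean 0.62 ± 0.86, adjusted p = 0.113). Its mean ran from 0.15 without prep 1 (adjusted p = 0.644) to 0.99 without prep 2, where it was higher (adjusted p = 0.0075). The ratios of rde-2 were 0.099, −0.067 and 0.789 (mean 0.27 ± 0.45, adjusted p = 0.353), and without prep 3 the mean was 0.016 (adjusted p = 0.980). The exonuclease gene mut-7 was positive on all preps, at 0.497, 0.248 and 0.338 (mean 0.36 ± 0.13, adjusted p = 0.141).

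Of the remaining genes, sid-1, which encodes a channel that takes double-stranded RNA into cells, was higher, at 1.42, 1.08 and 0.630 (mean 1.04 ± 0.39, adjusted p = 0.0022 in limma). The DEAD-box helicase gene rde-12 was higher too, at 1.21, 0.663 and 0.513 (mean 0.80 ± 0.37, adjusted p = 0.0087). The helicase gene znfx-1, whose product forms granules beside P granules and acts in small RNA inheritance, was at 0.261, 0.375 and 0.676 (mean 0.44 ± 0.21, adjusted p = 0.084). It was positive on every prep and was called higher in 2 alternatives, leaving out prep 1 (adjusted p = 0.046) and quantile normalization (0.038).

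By protein class, 9 of the 16 measured Argonaute genes were higher and 7 did not pass, against 17 of the 26 other genes. Over all genes measured, 16.1% were higher. The 9 Argonaute genes that passed were each at least 2-fold higher, while 5 of the 17 other genes were. At least 2-fold higher with a call were 5.65% of all genes. Without prep 1 the means of the Argonaute genes alg-2 (0.94) and hrde-1 (0.89) fell under 2-fold. Of the other genes, rde-4 (0.74) and sid-1 (0.86) did so too, and dcr-1 (1.03) rose above it. The Argonaute means ran from −0.49 to 2.29 with a median of 1.15, and those of the other genes from −0.17 to 1.43 with a median of 0.64. These are counts within a chosen list, and the difference between the classes was not tested.

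A list of 45 further small RNA genes, chosen by name with earlier results of these data known, was read in the same fit. Of 40 measured, 23 were higher and 2 lower, 15 missed the threshold, and the median was 0.64. Over all genes measured, 16.1% were higher and 17.8% lower, and the median was −0.024. The 6 with the largest ratios past the threshold were all higher. The DEAD-box helicase gene cgh-1, which acts on stored maternal RNA, had 3.20, 1.63 and 2.07 (mean 2.30 ± 0.81), and wago-5 had 2.30, 1.72 and 1.89 (mean 1.97 ± 0.30). The piRNA biogenesis gene erh-2 stood at 1.45 ± 0.66 and vig-1, named for its fly relative in the RNA-induced silencing complex, at 1.42 ± 0.58. The germline microRNA Argonaute gene alg-5 stood at 1.38 ± 0.23 and eri-9 at 1.34 ± 0.20. Adjusted p-values of these 6 in limma ran from 3.8e-05 for wago-5 to 0.00095 for erh-2.

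Of the further genes, the 2 lower ones, named after their values were seen, were drh-2 and rsd-3. The helicase-related gene drh-2 had −1.03, −0.684 and −0.622 (mean −0.78 ± 0.22, adjusted p = 0.0064 in limma). It is closely related to drh-1, so either probe may bind both. The gene rsd-3, needed for the systemic spread of RNA interference, had −0.323, −0.835 and −0.644 (mean −0.60 ± 0.26, adjusted p = 0.025). All 3 preps were negative for both. Leaving out prep 2 or prep 3 ended the call of rsd-3 (adjusted p = 0.195 and 0.126), and without prep 1 another gene, sid-5, was lower as well (mean −0.81, adjusted p = 0.010). The RdRP gene rrf-2 was counted as higher on 1 of its 2 probes, with probe means of 0.69 and 0.053. With 1 row per gene, or with every probe of a gene required to pass, 22 of the 40 were higher, against 16.1% and 15.8% of all genes.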

How the data were processed

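RNA of 3 adult preps was compared with a mixed reference on 2-colour arrays, 1 array per prep. The authors deposited log2 ratios for 20000 probes. The sources used here do not state how they were normalized and centred or in which direction they run. Base 2 was read off the values, since 100% of them give ratios that are multiples of 0.001 (within 0.00005, ratios under 3). Spot intensities were not used, so dim spots could not be removed, and the number of arrays limits the precision.

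Of the probes, 15655 had 1 gene in the platform annotation, 198 had several, and 4147 have no name here. Current symbols came from RefSeq genes of WBcel235 (15569 by gene ID, 7 by accession, 79 kept). Each array was centred on its median. The 19710 probes with a value on all arrays were fitted in limma 3.58.1 (R 4.3.3; lmFit and eBayes, intercept only) and tested two-sided against 0, with Benjamini-Hochberg adjustment and a threshold of 0.05. The scripts were tested on simulated data. A gene with several probes is their mean with the largest adjusted p, and is called if any of its probes passes. Every measured gene of the list is named. Full values are given for the 8 highest and 6 lowest past the threshold and for every Argonaute, and of the 45 further genes the 6 largest past the threshold are named. The members and lists were chosen with earlier results of these data known. Sequences of the genes are not reported here. With 1 array per prep, batch and prep cannot be told apart.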

Additional observations from a re-analysis of the deposited data

How the results depend on the processing

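Over 10 alternatives (no centring, scaling to equal spread, quantile normalization, probes on at least 2 arrays, robust eBayes, 1 row per gene, all probes of a gene past the threshold, and each prep left out) the call and sign of a measured gene were kept in 386 of 420 cases, lost in 14 and gained in 12. Not all of these cases could change. For a gene with 1 probe, requiring all probes to pass repeats the main call, and 1 row per gene keeps its ratio. Of the 26 higher genes 18 kept their call in every alternative. The number of higher genes ran from 20 to 29, and with a prep left out from 20 to 25. Over all genes the share called higher ran from 12.9% without prep 3 to 18.8% after quantile normalization. The number of lower genes went from 0 to 1 (sago-1) after scaling and after quantile normalization, where 19.2% and 21.2% of all genes were lower. The median ratio ran from 0.547 to 0.822 with a prep left out. Of the further small RNA genes 20 to 22 were higher and 1 to 3 lower with a prep left out. Of all genes, 12.9% to 14.1% were then higher and 13.1% to 16.2% lower. Genes near 0 changed sign in 8 cases, all without a call: ain-2 to 0.0073 without centring and 0.071 without prep 2 (−0.067 without prep 3), drh-1 to −0.0081 after scaling, −0.016 after quantile normalization and −0.069 without prep 1 (0.13 without prep 3), henn-1 to −0.00055 after scaling and −0.18 without prep 1 (0.30 without prep 2), and alg-3 to 0.23 without prep 2 (−0.35 without prep 1). The causes were not tested. No paired analysis was possible because there is 1 group.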
